A study of Mus musculus with 50 samples.

Results

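The genes described here across single hemogenic endothelial cells were the Myc genes Mycn, Myc and Mycl1, their partner Max, and the genes Lin28b, Hmga2, Igf2bp2, Igf2bp3 and Bcl11a, which are known as regulators of the fetal or adult character of blood cells. They were chosen by name, and all 9 had a row among the 11879 gene rows of the expression table. All 50 samples of the series were single mouse cells of the same kind, iR-iHECs. They came from C57BL/6 embryonic stem cells with a Runx1 cassette in the Rosa26 locus (iRunx1), which doxycycline switches on. The drug was present from the sixth day of differentiation and the cells were sorted on the eleventh day, by the study's gate for endothelial cells with blood potential (CD31+CD41lowCD45-c-kit+CD201high). All 50 cells carried the cassette and had been given doxycycline, so there was no untreated group. The labels name no culture or animal, so the 50 cells were 1 sample without replicates, no test between groups was possible, and the intervals given cover counting error over cells only.

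The labelled cell type was set against marker genes. All 10 endothelial markers had a row and each was above TPM 1 in at least 25 cells, including Pecam1 (CD31) in 50 of 50. Their summed level ran from 613 to 8122 TPM. Of 9 blood cell markers with a row, Laptm5 was above TPM 1 in 48 cells, Coro1a in 21 (up to 1690 TPM), Vav1 in 11, Rac2 in 10, and Itgb2 and Cd52 in 3 each, while Ptprc (CD45), Spn and Cd48 were listed at 0 in every cell. The summed blood markers ran from 1.08 to 1871 TPM. Of 6 mesenchymal and 2 neural markers with a row, the most frequent were Twist1 in 5 cells and Nes in 19. Markers of pluripotent stem cells were not analysed here. The median cell had 6224 genes above TPM 1 and the lowest, cell 4-6, had 2400. Cells are named by the numbers in their titles, and the first of these takes the values 1 to 4 with 11, 14, 13 and 12 cells. The labels do not say what it stands for.

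TPM is a transcript level scaled by length, so levels of different genes can be compared within a cell. It keeps no sequencing depth, so depth per cell is unknown. A value of 0 is given only as listed at 0.

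The Myc proteins are transcription factors that pair with Max, bind the E-box in DNA and raise genes for growth and ribosome production. Mycn is best known from embryonic tissues and Myc from dividing cells of many kinds. In blood stem cells both are known to act. Lin28b is an RNA-binding protein of fetal blood cells that blocks the maturation of let-7 microRNAs. Let-7 in turn lowers mRNAs that carry matches to its seed, among them Hmga2 and Igf2bp genes, and Lin28b is widely used to give blood cells a fetal character. Bcl11a is the repressor that silences embryonic and fetal globin genes, and it is also needed for lymphoid cells.

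The let-7 sequences are shown first because they link Lin28b to the other fetal genes. Picked by name (let-7 and miR-98), RefSeq for GRCm38.p6 held 9 distinct mature let-7 family sequences, and all 9 shared 1 seed. Counted by seed and not by name, 11 mature microRNAs carried it. Bases 2 to 8, the seed, are in capitals.
mmu-let-7a-5p: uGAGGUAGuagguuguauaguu
mmu-let-7e-5p: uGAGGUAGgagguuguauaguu
mmu-let-7g-5p: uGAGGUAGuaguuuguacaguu
mmu-miR-98-5p: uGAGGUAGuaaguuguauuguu
The levels of these microRNAs were not measured.

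The seed match CTACCTC was searched on the transcript strand of the longest annotated 3′ UTR of each gene (GENCODE M21, GRCm38). Of the 9 genes, 4 held it. Lin28b had 4 matches in a UTR of 4445 bases, and Hmga2 had 4 in 3014 bases. Among all UTRs within 25% of these lengths, the gene's own included, 23.4% and 16.0% held at least 1 match. Of the same UTRs, 0.240% and 0.139% held 4 or more. Igf2bp2 and Igf2bp3 had 1 match each, where 11.5% and 12.9% of UTRs of like length held one. The match followed by an A is shown for each of these genes, with the seed match in capitals.
Lin28b, chr10:45381022-45381044, minus strand: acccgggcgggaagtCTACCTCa
Hmga2, chr10:120364224-120364246, minus strand: gccgacattcaatttCTACCTCa
Igf2bp2, chr16:22059473-22059495, minus strand: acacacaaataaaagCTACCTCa
Igf2bp3, chr6:49086787-49086809, minus strand: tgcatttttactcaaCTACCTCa
Mycn, Myc, Mycl1, Max and Bcl11a did not have these letters in the UTR searched. A shorter form, TACCTCA without the C before it, pairs with bases 2 to 7 and was present 2 times in the 913 bases of the Mycn UTR, where 6.00% of UTRs of like length held TACCTCA. It is shown in capitals.
Mycn, chr12:12936499-12936521, minus strand: ctaagtactgtaagaaTACCTCA
Mycn, chr12:12936128-12936150, minus strand: ttagagcactttgaaaTACCTCA
The shorter form was also present in Hmga2 (3 times), Mycl1, Lin28b and Igf2bp2 (1 time each), and 13.5% of UTRs of the length of Mycl1 held TACCTCA. It was not found in the UTRs of Myc, Max, Igf2bp3 and Bcl11a. A match is a description of letters and no measure of binding.

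The E-box CACGTG, which reads the same on both strands, was searched in promoter windows of 300 bases (250 before the gene start and 50 after) from RefSeq on GRCm38.p6. Windows were matched for 8 of the 9 genes but not for Myc, so Myc was not searched. Of the 8 genes, 3 held it: Max, Lin28b and Igf2bp3, the last of them 2 times. Of all 32851 windows, 7.15% held it. The sites are shown with the E-box in capitals, since it is the sequence that Myc with Max binds.
Max, 3 bases before the start: agcccggtCACGTGttaggggg
Lin28b, 49 bases before the start: gacagagtCACGTGtgctcagg
Igf2bp3, 23 bases before the start: ggattcctCACGTGagacgttg
Igf2bp3, 5 bases after the start: agtttgaaCACGTGgctcattc
The windows are chr12:76962199-76962498 for Max, chr10:45470152-45470451 for Lin28b and chr6:49214905-49215204 for Igf2bp3, all on the minus strand. Starts are those of RefSeq, and the start used for Lin28b lies inside the longer GENCODE span given for that gene below. Binding was not measured.

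Counted at TPM above 1, 6 of the 9 genes were present in at least 25 cells: Hmga2, Igf2bp2, Igf2bp3, Mycn, Max and Myc. Over all 11879 rows, 53.2% met this count. Ordered by median TPM, the genes were Mycn (79.9), Igf2bp2 (73.1), Hmga2 (56.8), Igf2bp3 (39.7), Max (23.0), Myc (9.39) and Lin28b (0.45), with Bcl11a and Mycl1 at 0. The quartile ranges of every neighbouring pair in this order overlapped. Within cells, Mycn was above Igf2bp2 in 24 cells and below it in 26, so the top places were not separated. Hmga2 was above Igf2bp3 in 31 cells and below it in 19, and Myc was above Lin28b in 30 and below it in 14. The plot of the 9 genes by cell shows this order and its spread.

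**Figure D1:**
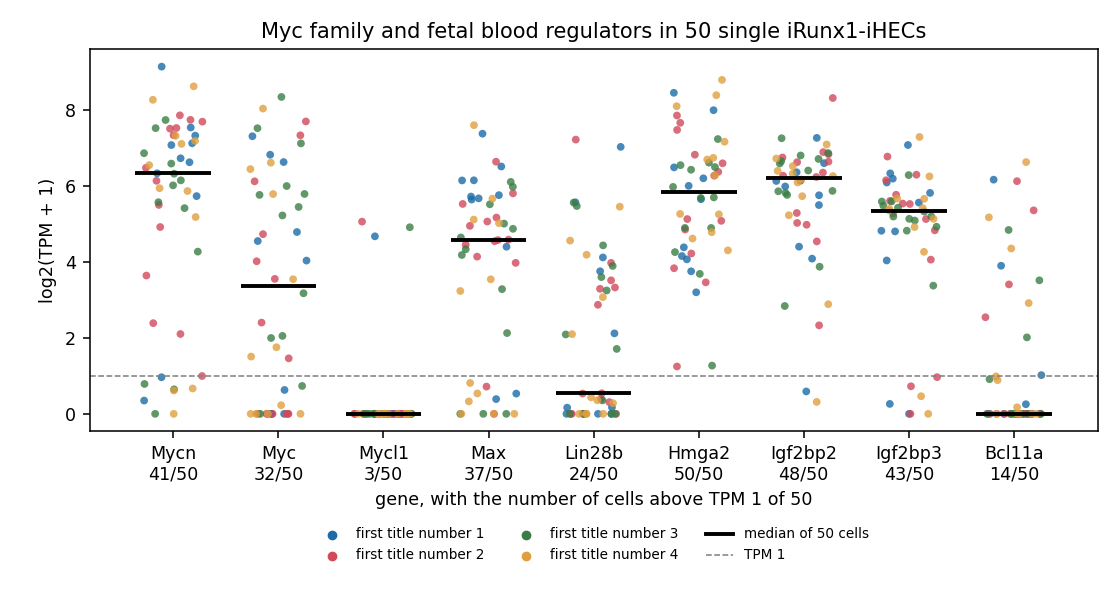
Level of each gene as log2(TPM + 1) in 50 cells (points, coloured by first title number), with the median (bar) and TPM 1 (dashed line). Hmga2 lies above the line in all 50 cells, while Mycl1 lies above it in 3.

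Mycn (GRCm38 chr12:12936093-12941914, minus strand) was the Myc gene with the highest median. It was above TPM 1 in 41 of 50 cells, or 82% (exact Clopper-Pearson 95% interval 68.6% to 91.4%). Its values ran from 0 through a median of 79.9 to 569 TPM in cell 1-14, and cell 4-7 followed with 397 TPM. Of all rows, 1859 had a higher median. Most cells were clearly high or near 0, since 39 were above TPM 10, 2 between TPM 1 and 10, and 7 above 0 but at most TPM 1. The share of cells was 75% to 92.9% across the first title numbers, with medians of 64.1 to 106 TPM.

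Myc (chr15:61985391-61990374, plus strand) was above TPM 1 in 32 cells, or 64% (49.2% to 77.1%), and listed at 0 in 15. Its values ran from 0 through a median of 9.39 to 327 TPM in cell 3-9. Among the cells above TPM 1 alone, the median was 48.3 TPM for Myc and 98.3 TPM for Mycn. The share for Myc was lowest under first title number 1 (54.5%) and highest under 3 (84.6%), where its median was 42.9 TPM. The first title numbers held 11 to 14 cells each, and these differences were not tested.

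Mycl1 (Mycl in the annotation, chr4:122995652-123002485, plus strand), the third Myc gene, was above TPM 1 in 3 cells, or 6% (1.25% to 16.5%), and listed at 0 in the other 47. The values were 24.6 TPM in cell 1-10, 32.5 TPM in cell 2-9 and 29.3 TPM in cell 3-6. All 3 of these cells also had Mycn above TPM 1 at a higher level, and they had 7076 to 7970 genes above TPM 1, more than the median cell.

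The next question was which Myc gene dominates in a cell. Mycn was the highest of the 3 in 37 cells, or 74% (59.7% to 85.4%), and Myc in 11, or 22% (11.5% to 36%). Mycl1 was highest in 0 of 50 cells, which allows a share of up to 6% (3 counts of 50), while the two-sided exact interval reaches 7.11%. In 2 cells, 1-6 and 4-13, no Myc gene was above TPM 1. Mycn was the commoner leading gene. The 2 shares come from the same 50 cells and depend on each other, so their intervals make no test. With a margin of at least 2 times the next Myc gene, Mycn led in 29 cells (58%) and Myc in 9 (18%), while 10 had no such margin. Under each first title number Mycn led in more cells than Myc, in 7 of 11, 12 of 14, 9 of 13 and 9 of 12 cells.

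The level of the leading gene overlapped widely between the cells led by Mycn and those led by Myc. In the 37 cells led by Mycn its level ran from 4.25 through a median of 116 to 569 TPM. In the 11 cells led by Myc its level ran from 2.38 through a median of 113 to 327 TPM. The TPM of the 3 genes added up to a median of 139 per cell, from 0 to 574. Of that sum Mycn made up a median of 84.8% over the 48 cells with a Myc gene above TPM 1. The share was over 90% in 20 cells, under 10% in 6 and in between in 22.

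**Figure D2:**
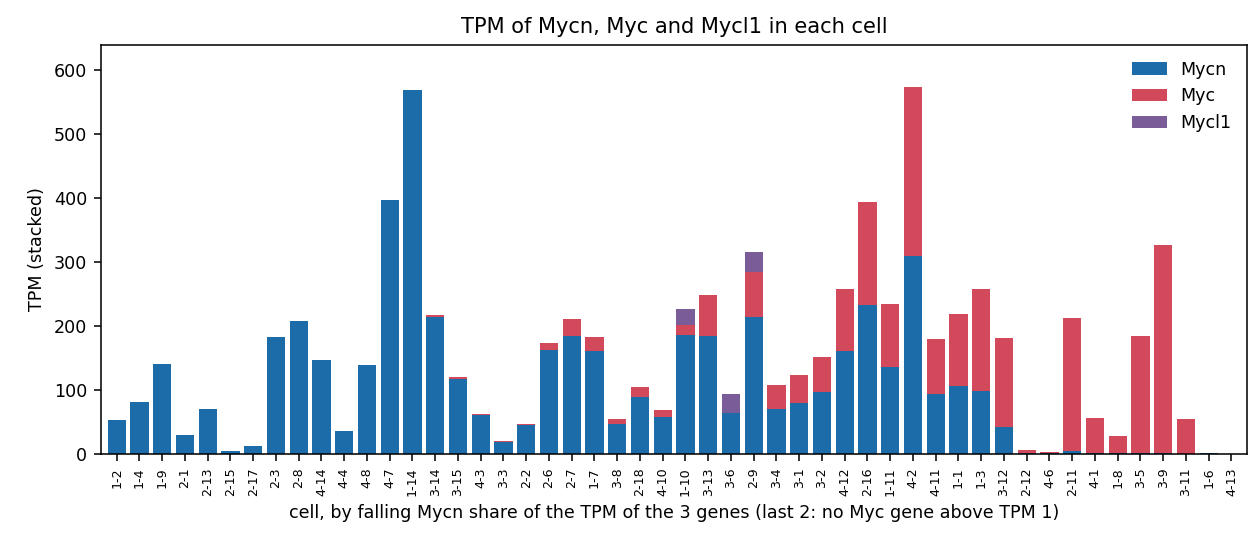
TPM of Mycn, Myc and Mycl1 stacked for each of 50 cells, ordered by falling Mycn share, with the 2 cells without a Myc gene above TPM 1 last. Cells made up almost wholly of Mycn stand at the left, 22 cells have a share between 10% and 90%, and 6 with a share under 10% stand at the right before the last 2.

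On the log2(TPM + 1) scale Mycn exceeded Myc within a cell by a median of 2.40, with quartiles of 0.14 and 5.12. The difference ran from -7.57 in cell 3-9 to 8.53 in cell 1-14. In cell 3-9 Myc was at 327 TPM and Mycn at 0.73 TPM. In cell 1-14 Mycn was at 569 TPM and Myc at 0.55 TPM. The ends of the range therefore each held cells with high RNA of 1 Myc gene and almost none of the other. The medians by first title number were 2.78, 3.22, 0.93 and 1.52, all in favour of Mycn, and leaving out number 2 lowered the pooled median to 1.25.

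Mycn and Myc were found together in many cells and so did not exclude each other. Both were above TPM 1 in 25 cells, or 50% (35.5% to 64.5%), where the product of their 2 shares gives 26.2 cells. At these shares no fewer than 23 and no more than 32 cells could hold both, so the count at TPM 1 had little room to fall. Mycn alone was present in 16 cells, Myc alone in 7 and neither in 2. Myc was above TPM 1 in 61.0% (44.5% to 75.8%) of the 41 cells with Mycn and in 77.8% (40.0% to 97.2%) of the 9 cells without it. These intervals overlap, and 9 cells could not show a moderate difference.

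Higher levels left more room. Above TPM 10 both were present in 19 cells, where 14 to 25 were possible and the product of shares gives 19.5. Above TPM 50 the count was 10, where 0 to 16 were possible and the product gives 10.2. Above TPM 100 it was 3, where 0 to 8 were possible and the product gives 3.2. These last cells were 1-1 (Mycn 106 and Myc 113 TPM), 2-16 (233 and 162 TPM) and 4-2 (310 and 264 TPM), so high levels of both genes were found together. Within first title numbers 2 and 3 and within the 25 cells with more genes, the count at TPM 1 was the lowest that the shares allow: 7 where 7 to 8 were possible, 8 where 8 to 10 were, and 15 where 15 to 16 were. In first title number 1 it was 5 (4 to 6 possible), in number 4 it was 5 (4 to 7 possible) and in the 25 cells with fewer genes it was 10 (8 to 16 possible). These narrow ranges limit what the divisions can show. Mycn was above TPM 1 in 17 of the 25 cells with fewer genes and in 24 of the 25 with more.

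Among the 25 cells with both, Mycn was the higher in 21 and Myc in 4, and 10 cells were within 2 times. Spearman's rho of Mycn with Myc was 0.07 over the 50 cells, given as a description of cells that share 1 sample and whose depth is unknown. It was 0.06 after taking out the number of genes per cell. Within the first title numbers it was 0.10, 0.25, -0.33 and 0.26. Of the 9103 rows above TPM 1 in at least 10 cells, 58.3% had a lower rho with Mycn than Myc had, and the middle of those rows was 0.04.

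**Figure D3:**
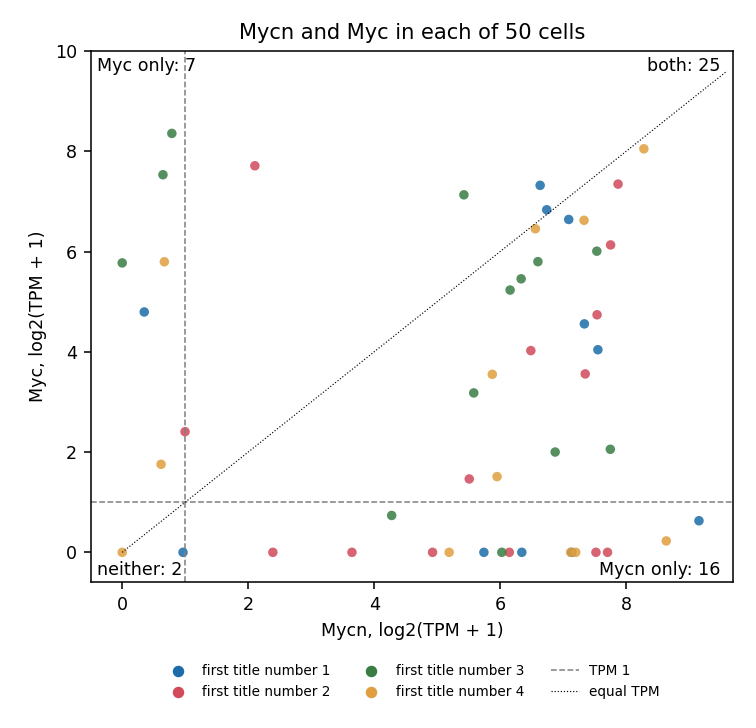
Mycn against Myc as log2(TPM + 1) in each of 50 cells, coloured by first title number, with TPM 1 (dashed) and equal TPM (dotted). Both genes lie above TPM 1 in 25 cells, Mycn alone in 16, Myc alone in 7 and neither in 2.

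Max (chr12:76937269-76962201, minus strand), the partner without which Myc proteins do not bind E-boxes, was above TPM 1 in 37 cells, or 74% (59.7% to 85.4%). Its values ran from 0 through a median of 23.0 to 195 TPM in cell 4-1. It was found with Mycn in 31 cells, where the product of shares gives 30.3 and 28 to 37 were possible, and with Myc in 25, where the product gives 23.7 and 19 to 32 were possible. In 11 cells (22%) a Myc gene was above TPM 1 and Max was not. One of these was cell 4-7, with Mycn at 397 TPM and Max listed at 0. The share of cells with Max was 50% under first title number 4 and 76.9% to 85.7% under the others.

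Of the wider Myc network, 13 listed genes had a row, and 8 (61.5%) were above TPM 1 in at least 25 cells, a share near the 53.2% of all rows. Among the Mad proteins, which bind Max and repress the genes that Myc raises, Mxi1 was in 43 cells (median 24.2 TPM), Mxd1 in 25, Mxd4 in 22 and Mxd3 in 5. Of the large repressor partners of Max, Mga was in 31 cells and Mnt in 15. Mlx, the partner of the glucose-sensing Mondo factors, was in 25 cells and the Mondo gene Mlxip in 35. Mxi1 was the only gene of this list in more cells than Mycn, with intervals that overlap.

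Of 15 genes for Myc partners and turnover, 13 (86.7%) were above TPM 1 in at least 25 cells, against 53.2% of all rows. Ruvbl2, a helicase bound by Myc, was in 48 cells at a median of 183 TPM. Fbxw7, which marks Myc proteins for destruction, was in 36 cells, and Aurka, which protects N-Myc from it, in 20. Of 30 textbook Myc targets, 28 (93.3%) were above TPM 1 in at least 25 cells, against the same 53.2%, with a median share of cells of 96%. Ldha (3679 TPM) and Npm1 (1618 TPM) were among those found in all 50 cells. These genes are active in dividing cells of most kinds. Their rho with Mycn had a median of 0.11, from -0.15 for Nme1 to 0.46 for Eif4a1, against 0.04 over all rows. With Myc the median was 0.04. Of 7 genes known as repressed by Myc, 4 (57.1%) were above TPM 1 in at least 25 cells, again near the share of all rows, led by the cell cycle inhibitor Cdkn1a in 50 cells at a median of 779 TPM.

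**Figure D4:**
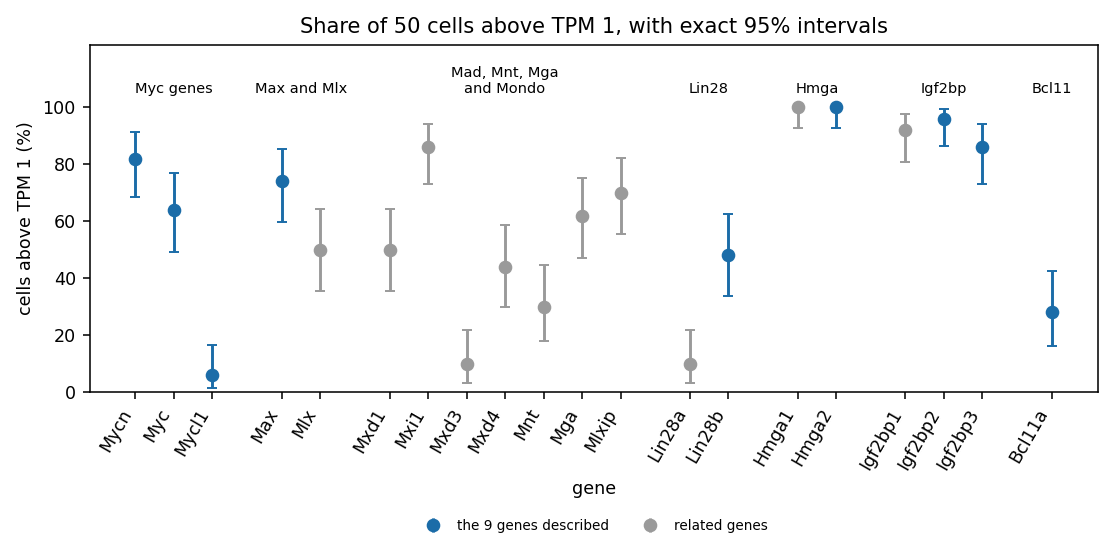
Share of 50 cells above TPM 1 (points) with exact 95% intervals (bars) for the 9 genes (blue) and their relatives (grey). Mycn, Myc and Mycl1 stand at 82%, 64% and 6%, and Lin28b and Lin28a at 48% and 10%.

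Among the fetal blood regulators, Lin28b (chr10:45376620-45486395, minus strand), the let-7 blocker, was the most divided. It was above TPM 1 in 24 cells, or 48% (33.7% to 62.6%). Its values ran from 0 through a median of 0.45 to 149 TPM in cell 2-15, and cell 1-9 was next with 131 TPM. In 10 cells the value was above 0 and at most TPM 1, so the share was 68% above TPM 0 and 30% above TPM 10. Its paralog Lin28a, the form of embryonic stem cells, was in 5 cells at no more than 10.5 TPM, and all 5 had Lin28b.

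Hmga2 (chr10:120361275-120476469, minus strand), a chromatin protein of fetal stem cells and a classic let-7 target, was above TPM 1 in 50 of 50 cells (92.9% to 100%). Its values ran from 1.38 TPM in cell 2-2 through a median of 56.8 to 446 TPM in cell 4-2. Cell 3-3 was also low at 1.41 TPM, and 13 cells were above 100 TPM. The relative Hmga1 was also in all 50 cells, at a median of 67.2 TPM. In cells where Lin28b was listed at 0 Hmga2 was still present, as in cell 1-14 at 352 TPM, and rho between the 2 genes was 0.07 over 50 cells.

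Igf2bp2 (chr16:22059009-22163299, minus strand) and Igf2bp3 (chr6:49085223-49214957, minus strand) code for RNA-binding proteins that bind mRNAs such as that of Igf2 in the embryo. Igf2bp2 was above TPM 1 in 48 cells, or 96% (86.3% to 99.5%), from 0.24 through 73.1 to 320 TPM in cell 2-13. The cells at or below TPM 1 were 1-14 and 4-6. Igf2bp3 was above TPM 1 in 43 cells, or 86% (73.3% to 94.2%), from 0 through 39.7 to 157 TPM in cell 4-6. Cell 4-6 thus held the lowest Igf2bp2 and the highest Igf2bp3 of all cells, and it was also the cell with the fewest genes. The third family member, Igf2bp1, was in 46 cells at a median of 22.3 TPM. All 3 were above TPM 1 in 39 cells (78%). Igf2 was in 50 cells at a median of 1043 TPM.

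Bcl11a (chr11:24078056-24174123, plus strand) was the least frequent of these regulators. It was above TPM 1 in 14 cells, or 28% (16.2% to 42.5%), and listed at 0 in 31. Its values ran from 0 through a median of 0 to 98.6 TPM in cell 4-12, followed by 71.2 TPM in cell 1-3. All 14 cells had Mycn above TPM 1, where the product of shares gives 11.5, and 11 had Lin28b, where it gives 6.72. The Bcl11a and Lin28b intervals overlap.

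In 25 rows for the fetal to adult switch and for globin genes, 12 (48%) were above TPM 1 in at least 25 cells, against 53.2% of all rows. They included parts of the NuRD complex that Bcl11a recruits, such as Hdac1 in 50 cells, Hdac2 in 49, Gatad2a in 49 and Chd4 in 48. Zbtb7a, the other globin repressor, was in 41 cells. The embryonic globin genes Hbb-y and Hbb-bh1 were in 4 cells each, and Myb and Gata1 were listed at 0 in all 50.

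Per cell, a median of 3 of the 5 fetal regulators was above TPM 1, from 2 to 5. The count was 2 in 6 cells, 3 in 20, 4 in 13 and 5 in 11. Hmga2, Igf2bp2 and Igf2bp3 were together in 41 cells (82%), so the cells differed chiefly in Lin28b and Bcl11a.

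**Figure D5:**
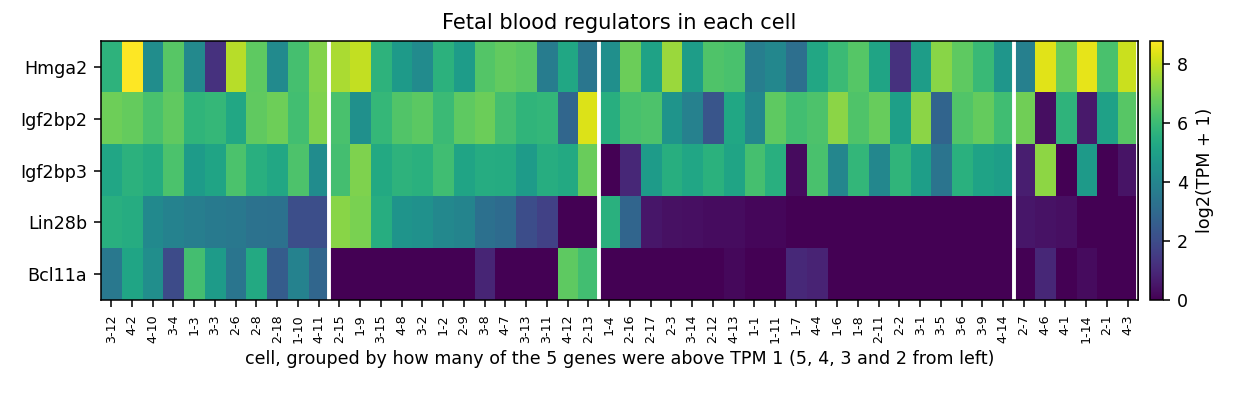
Level of the 5 fetal blood regulators as log2(TPM + 1) (colour) in each of 50 cells, grouped by how many were above TPM 1. The 11 cells at the left had all 5, and Lin28b and Bcl11a are dark in most cells of the right side.

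Of 25 rows for the Lin28, let-7 and Igf2bp axis, 18 (72%) were above TPM 1 in at least 25 cells, against 53.2% of all rows. The let-7 processing genes Drosha and Dicer1 were in 32 and 31 cells and Dgcr8 in 10. Zcchc11 and Zcchc6, which add the uridines that mark let-7 precursors, were in 44 and 43. Trim71, a let-7 target, was in 44 and Arid3a, a let-7 target in B cells, in 47. H19, which lies beside Igf2, was in 4.

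Over the 36 pairs of the 9 genes, rho had a median of 0.07, was highest for Lin28b with Igf2bp3 (0.25) and lowest for Max with Bcl11a (-0.21). Correlations of this size in single cells of unknown depth are no finding. Against the number of genes above TPM 1 in a cell, rho was 0.33 for Mycl1, 0.31 for Igf2bp2, 0.13 for Mycn and -0.14 for Hmga2. With the summed blood markers it was 0.27 for Mycn and 0.04 for Myc, and with the summed endothelial markers -0.02 for Mycn and 0.22 for Myc. The part of these markers in the patterns above was not tested. Of 15 G2 and mitosis genes, 4 (26.7%) were above TPM 1 in at least 25 cells, against 53.2% of all rows. This count depended strongly on the number of cells asked for, as given in the last section. Cdk1 was in 47, and the list's median rho was 0.02 with Mycn and 0.02 with Myc.

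Across the same 9103 rows, the genes whose levels followed Mycn most closely were Ppp3r1, the regulatory subunit of calcineurin (0.60), Rabif (0.55), the immediate-early gene Ier2 (0.55), Inpp5b (0.53) and Slc25a39 (0.52). For Myc they were Mesdc2 (0.52), Sec23b (0.50), R3hcc1 (0.49), Scpep1 (0.48) and Ube2z (0.45). For the others the closest were Sgpl1 for Max (0.50), Jmy for Lin28b (0.54), Rpl37 for Hmga2 (0.52), Parp16 for Igf2bp2 (0.62), Hist1h2ab for Igf2bp3 (0.53) and Fam173a for Bcl11a (0.54). These are the top of a ranking of all these rows over 50 cells that share a sample, and no test was made. Within single first title numbers the value for Hmga2 with Rpl37 ranged from -0.02 to 0.79 and for Mycn with Ppp3r1 from 0.33 to 0.81.

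Some genes share genomic space with others. Hmga2 and Bcl11a each have 2 annotated antisense genes within them, and the end of Igf2bp3 overlaps Malsu1 on the other strand. Whether reads were counted by strand was not stated, so reads from these partners cannot be told apart. The pseudogene Gm18010 also lies opposite Igf2bp3. On the same strand, Max holds the unclassified gene Gm47218 and Hmga2 the microRNA gene Mir763, whose reads could not be told apart even by strand. No other annotated gene overlaps Mycn, Myc, Mycl1, Lin28b or Igf2bp2.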

How the data were processed

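Single iR-iHECs were amplified with a whole-transcriptome kit. The deposited TPM values are per gene and cell. The submitters' processing notes name HISAT2 2.1.0, SAMtools 0.1.19, StringTie 1.3.4 and the mm10 genome; filters on rows, and whether strand was used, are not given in the sources used here. Amplified copies of 1 molecule were not told apart.

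From the TPM values, cells above TPM 1 were counted, with exact Clopper-Pearson 95% intervals. Levels were compared as log2(TPM + 1). Spearman's rho was taken over 50 cells, among the 9 genes (Mycl1, above TPM 1 in 3 cells, included) and against rows above TPM 1 in at least 10 cells. The number expected together was the product of the 2 shares. With 1 sample no test was made, and no doublet caller was run. Only the rank correlation, plain and with the number of genes taken out, was tested on simulated data. Genes most alike were the 5 rows of highest rho with Mycn and Myc and the first 3 for the others. Genes, gene lists and markers were chosen with earlier results of these data known. Alternatives were TPM above 0, 5 and 10, leaving out each first title number or the cells under 5000 genes, a pseudocount of 0.1 and TPM rescaled without 84 ribosomal protein rows. Protein sequences were not used here. Python 3.11.15, pandas 2.3.3, NumPy 2.4.6, SciPy 1.17.1 and matplotlib 3.10.9 were used.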

Additional observations from a re-analysis of the deposited data

How the results depend on the processing

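No paired analysis was possible because all cells belong to 1 group. The share of cells led by Mycn was 69.4% to 76.9% with each first title number left out, and 58% with a margin of at least 2 times. The share with both Mycn and Myc was 68% above TPM 0. It was 20% above TPM 50 and 6% above TPM 100, levels chosen after seeing the data. The median log2 difference of Mycn and Myc was 1.25 to 2.78 with each first title number left out. The median number of fetal regulators per cell was 4 above TPM 0 and 4 without ribosomal protein rows, and 3 to 4 with each first title number left out. Of the G2 and mitosis genes, 4 of 15 were in at least 25 cells and 13 in at least 25% of cells. The share of all rows at this lower cut is not given here, so the count of 13 cannot be judged against it. Counting values above TPM 0 took 4 of the 9 gene shares (Mycn, Max, Lin28b and Igf2bp2) outside their intervals, and TPM 10 took 1 (Lin28b). The Spearman correlation of Mycn with Myc changed sign between settings. It ran from -0.01 to 0.23 with each first title number left out and was -0.02 without the 7 cells under 5000 genes. Leaving out cell 4-6, also chosen after seeing the data, moved none of the Mycn and Myc values or the regulator count past their limits. Depth is unknown, so the absence of a transcript in a cell cannot be told from a failure to capture it.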
